A study of Mus musculus with 18 samples.

Results

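The comparison is between sperm of F2 males of a line whose founding males were exposed to 2 gases and sperm of F2 control males, and its question is whether small RNA still differs 2 generations after the exposure. It takes 6 of the 18 libraries in the series: F2-con replicates 1 to 3, here Con 1 to Con 3, and F2-NHS replicates 1 to 3, here NHS 1 to NHS 3. All males were ICR mice, an outbred strain. In the exposed line, F0 males received ammonia (NH3) and hydrogen sulphide (H2S) for 5 weeks from 3 weeks of age, were paired with untreated ICR females, and sired F1 sons that grew up untreated. Those F1 sons were mated at 8 weeks of age with untreated females and gave the F2 males, which received no treatment either. The labels call the controls F2_Con and give them no agent. They do not say whether a library holds 1 male or a pool, or whether the 3 libraries of a group came from separate litters. A p-value here speaks only for the spread among libraries, part of which may be technical. F0 controls and treated F0 males (3 libraries each) and F1 controls (3 libraries) serve as reference levels for some results.

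Deposited entries of 4 classes are complete in all 6 libraries and make up the comparison: known miRNAs, which the table names after mouse precursors, and predicted miRNAs, predicted siRNAs and predicted piRNAs, which it numbers as novel_mir, novel_sir and novel_pir. The listed arms and copies of each known precursor were summed, which turned 1739 listed names into 1008 summed names over all libraries. Of these, 932 were listed in at least 1 F2 library and 461 passed the abundance filter (at least 1 read per 1000000 in at least 3 libraries). The F2 libraries held 18072900 to 26131625 reads, so 1 tag per 1000000 reads (TPM) rests on 18.1 to 26.1 reads. The lists of NHS 2 and NHS 3 break off inside the known piRNAs after 35.7% and 40.3% of their reads, so known piRNAs and structural RNA families were not analysed here.

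Libraries also split in a way that the groups do not follow. The predicted miRNA novel_mir1, whose letters are those at the start of an alanine transfer RNA, stood at 18720.2, 5399 and 85.6 TPM in Con and 3282, 42.9 and 140.5 TPM in NHS. Con 1, Con 2 and NHS 1 were thus above 1000 TPM, and Con 3, NHS 2 and NHS 3 were far below it. This threshold was set after the values were seen. It splits the 18 libraries into 6 at 2378 to 18720.2 TPM and 12 at 42.9 to 621 TPM. The sets cross the groups unevenly, with 2 of 3 Con libraries and 1 of 3 NHS libraries in the high set, so results are also given for the 3 low libraries, among which Con 3 is the sole control. Why the libraries split was not tested.

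MicroRNAs are short RNAs that guide Argonaute proteins to messenger RNAs through their seed, bases 2 to 8 of the mature strand, and members of a family share that seed. Mature sperm makes little or no new RNA. Its small RNA is left over from spermatogenesis in the testis or is gained in the epididymis, where vesicles from the epithelium fuse with passing sperm. Piwi-interacting RNAs (piRNAs) guard the germ line against transposons and are longer than miRNAs, usually starting with U. Small RNA of sperm has been studied as a carrier of paternal experience to the embryo.

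The sequences that the results turn on are printed from 5′ to 3′ with the seed in capitals, from RefSeq (GRCm38.p6), where 1472 of the 1739 listed names had a mature entry. The first set is the miR-200 family, typical of epithelium, which carries a pair of seeds:

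miR-200b-3p: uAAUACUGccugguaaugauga
miR-200c-3p: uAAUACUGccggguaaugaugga
miR-429-3p: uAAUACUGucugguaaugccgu
miR-200a-3p: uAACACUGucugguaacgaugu
miR-141-3p: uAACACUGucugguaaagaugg

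On mouse chromosome 4, miR-200b-3p (chr4:156055685-156055706), miR-200a-3p and miR-429-3p lie side by side on the minus strand, and miR-200c-3p (chr6:124718324-124718346) and miR-141-3p are neighbours on chromosome 6. Each cluster thus holds both seeds. The second set shows miR-34 and miR-449, a family typical of germ cells in and after meiosis and of multiciliated cells:

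miR-34b-5p: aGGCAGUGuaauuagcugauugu
miR-449a-5p: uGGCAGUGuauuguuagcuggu
miR-34b-3p: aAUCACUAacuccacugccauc
miR-34c-3p: aAUCACUAaccacacagccagg

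miR-34b-5p and miR-449a-5p share a seed, and so do the opposite strands miR-34b-3p (chr9:51103574-51103595) and miR-34c-3p (chr9:51103044-51103065), neighbours on the minus strand of chromosome 9. Almost all deposited reads of miR-34b are listed under the 3p strand, at 4359.7 to 17028 TPM against 11.1 to 95.4 TPM for 5p. The third set holds a pair and a trio that share seeds, with 2 miRNAs that stood lower in NHS:

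miR-19a-3p: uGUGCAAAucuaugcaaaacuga
miR-19b-3p: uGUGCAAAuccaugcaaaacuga
miR-152-3p: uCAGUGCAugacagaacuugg
miR-148a-3p: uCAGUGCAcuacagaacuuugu
miR-148b-3p: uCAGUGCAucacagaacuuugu
miR-132-3p: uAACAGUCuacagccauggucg
miR-204-5p: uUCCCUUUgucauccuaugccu

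miR-19a-3p (chr14:115044048-115044070) and miR-19b-3p (chr14:115044358-115044380) come from the same cluster on chromosome 14, while miR-152-3p, miR-148a-3p and miR-148b-3p come from chromosomes 11, 6 and 15. The last set is from the deposited tables of predictions. It holds the predicted miRNA that splits the libraries, with the seed in capitals. It also holds the predicted piRNA with the smallest p and the most abundant one, both with CCA, the letters that are added to the end of every tRNA, in capitals:

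novel_mir1: gGGAUGUAgcucagugguagagc
novel_pir295434: caaatcccggacgagcccCCA
novel_pir83653: cgtttcccggccaatgcaCCA

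The precursor of novel_mir1 lies at chr13:23438704-23438767 on the minus strand (mm10), where the GENCODE M21 annotation has no gene.

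Among known miRNAs, all NHS libraries stood above all Con libraries in the epithelial miR-200c and miR-200b. In miR-34b, of germ cells and multiciliated cells, all NHS libraries stood below all Con libraries. No single name passed the threshold of the main test in the full data. edgeR called 0 of 461 names at an adjusted p of 0.05 (0%), the smallest being 0.0645. At an unadjusted p under 0.05 there were 67 names (14.5%), 36 higher in NHS (7.81%) and 31 lower (6.72%). DESeq2 on the same counts called 30 (6.51%), 17 higher (3.69%) and 13 lower (2.82%). Of those 30, the 3 NHS libraries lay above all Con libraries in 14 and below them in 10, and the groups overlapped in 6. Over all 461 names, NHS lay wholly above Con in 56 (12.1%) and wholly below in 22 (4.77%). Overlap was judged on TPM of all library reads, of which known miRNAs took a mean of 27.4% in Con and 34.4% in NHS. Fitted folds were scaled within miRNAs instead, so the 2 measures differ. In all, 218 names (47.3%) had a fitted fold above 0.

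The count of calls turned on 1 library. Without NHS 1, the NHS library that is high in novel_mir1, edgeR called 17 names, 10 higher and 7 lower, and 14 of these are among the 30 of DESeq2. Among the 3 libraries low in novel_mir1, with 1 Con library assumed to vary like the rest, edgeR called 1 name, miR-6239, lower in NHS. Folds are log2 of NHS over Con after TMM scaling within miRNAs, and their median over the 461 names was -0.08. Scaling to all library reads instead moved that median by 0.30, to 0.23, so folds near 0 change sign with the scaling.

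**Figure D1:**
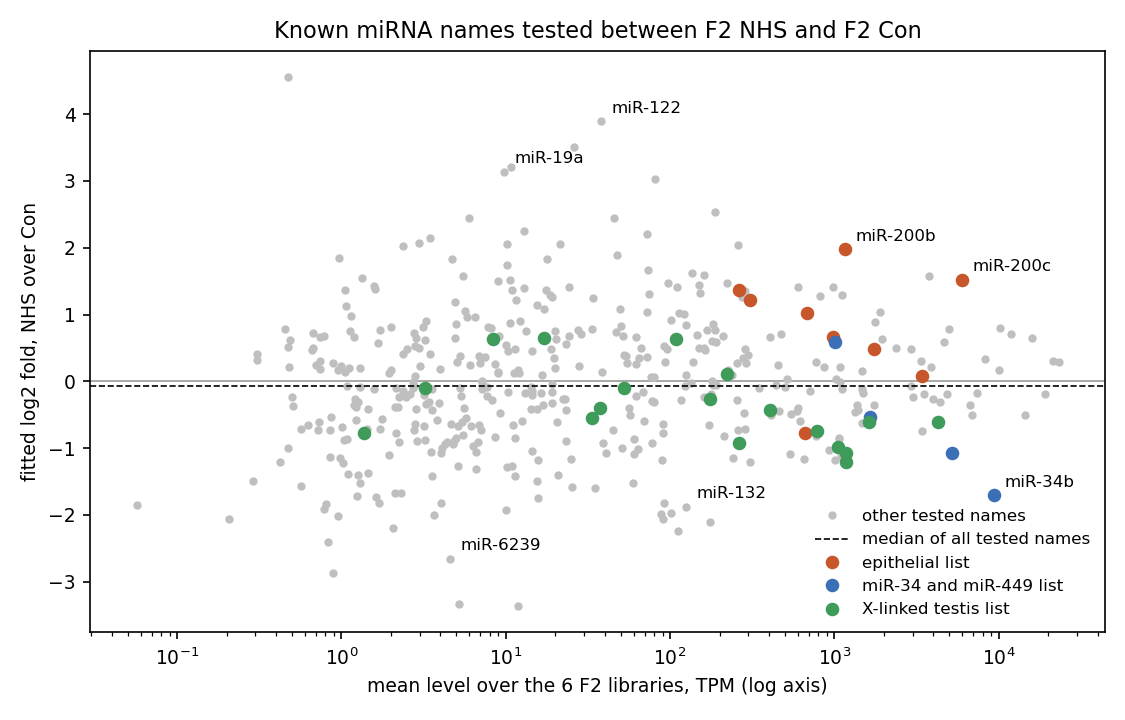
Fitted log2 fold of NHS over Con (vertical axis) against the mean level over the 6 F2 libraries in TPM (horizontal log axis) for the 461 known miRNA names tested. Epithelial list members lie above 0 in 8 of 9 cases, and miR-34b, the most abundant member of its list, lies at -1.71, while the dashed line marks the median of all names at -0.08.

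The epithelial list (the miR-200 family, miR-205 and the miR-183, miR-96 and miR-182 cluster) took 3.49%, 3.45% and 3.41% of miRNA reads in Con and 5.29%, 7.15% and 5.79% in NHS. The Con libraries were nearly equal, at 3.45% ± 0.0396 (SD, n = 3), and every NHS library was above them, at 6.08% ± 0.967 (SD, n = 3; two-sided exact permutation p = 0.1, the smallest that 3 against 3 libraries allow). All 9 members were tested. Of these, 8 had a fold above 0 and 1 below, with a median of 1.02 against -0.08 for all names. None passed the adjusted threshold. In 4 members NHS lay wholly above Con (12.1% over all names), and 3 had an unadjusted p under 0.05 (7.81% of all names higher in NHS). The median stayed between 0.60 and 1.32 when each library was left out, and was 1.36 in the libraries low in novel_mir1.

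miR-200c, the most abundant member, stood at 2738, 2224 and 2899 TPM in Con and 6272, 12474 and 9089 TPM in NHS. Every NHS library exceeded every Con library by a wide margin (log2 fold 1.52, SE 0.35, edgeR adjusted p 0.0676). Over 16 alternative settings its adjusted p ran from 0.00164 to 0.338, and its fold was 1.80 in the libraries low in novel_mir1. miR-200b, which has the same seed, stood at 479, 327 and 377.2 TPM in Con and 845, 2678 and 2294 TPM in NHS. NHS 1 was the lowest of the NHS libraries but still above all Con libraries (log2 fold 1.98, SE 0.53, edgeR adjusted p 0.0952, 0.00823 to 0.417 over 16 settings). The remaining carrier of that seed, miR-429, was at 4515, 2074 and 2502 TPM in Con and 5361, 2153 and 3884 TPM in NHS, and its groups overlapped.

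With the other seed, both members overlapped between groups. miR-200a was at 783, 902 and 2169 TPM in Con and 1756, 2020.1 and 2766 TPM in NHS, with Con 3 inside the NHS range. miR-141 was at 571, 545 and 859.6 TPM in Con and 603, 1319.5 and 2009.5 TPM in NHS, with NHS 1 among the Con libraries. Within the cluster on chromosome 4, miR-200b had a fold of 1.98 (SE 0.53) and its neighbour miR-429 one of 0.08 (SE 0.56), which was -0.46 without NHS 1. The contrast between these 2 members was not tested. miR-96, of a cluster known from sensory epithelium, stood at 123.7, 101 and 156 TPM in Con and 334, 476 and 382.2 TPM in NHS. Its groups did not overlap (log2 fold 1.37, SE 0.39, edgeR adjusted p 0.0952).

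miR-182 was at 663, 132 and 419 TPM in Con and 292.8, 1577 and 1031 TPM in NHS, with overlapping groups. miR-183 was the sole member with a fold below 0 (-0.77), at 1231, 520.1 and 591 TPM in Con and 724, 261 and 651 TPM in NHS. miR-205, typical of basal and stratified epithelium, was at 162, 166 and 144.04 TPM in Con and 309.6, 774 and 289.7 TPM in NHS, again with every NHS library above every Con library and the highest value in NHS 2 (edgeR adjusted p 0.439).

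Levels in the other generations put these values in scale. miR-200c ranged over 5550.3 to 15331 TPM in F0 Con, 6254 to 11088 TPM in F0 NHS and 1889.7 to 3590.1 TPM in F1 Con. F2 Con thus lay inside the F1 Con range and under all F0 libraries, and all 3 F2 NHS libraries lay inside the range of the F0 libraries. For miR-200b the ranges were 1977 to 3623 TPM in F0 Con, 1326 to 3760.0 TPM in F0 NHS and 217 to 567 TPM in F1 Con; F2 Con again lay inside the F1 Con range and under all F0 libraries, but NHS 1 lay between them. The list as a whole, by contrast, took 4.604% to 6.01% of miRNA reads in F0 Con and 3.32% to 6.51% in F1 Con, a range that holds F2 Con and 2 of the 3 F2 NHS libraries.

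**Figure D2:**
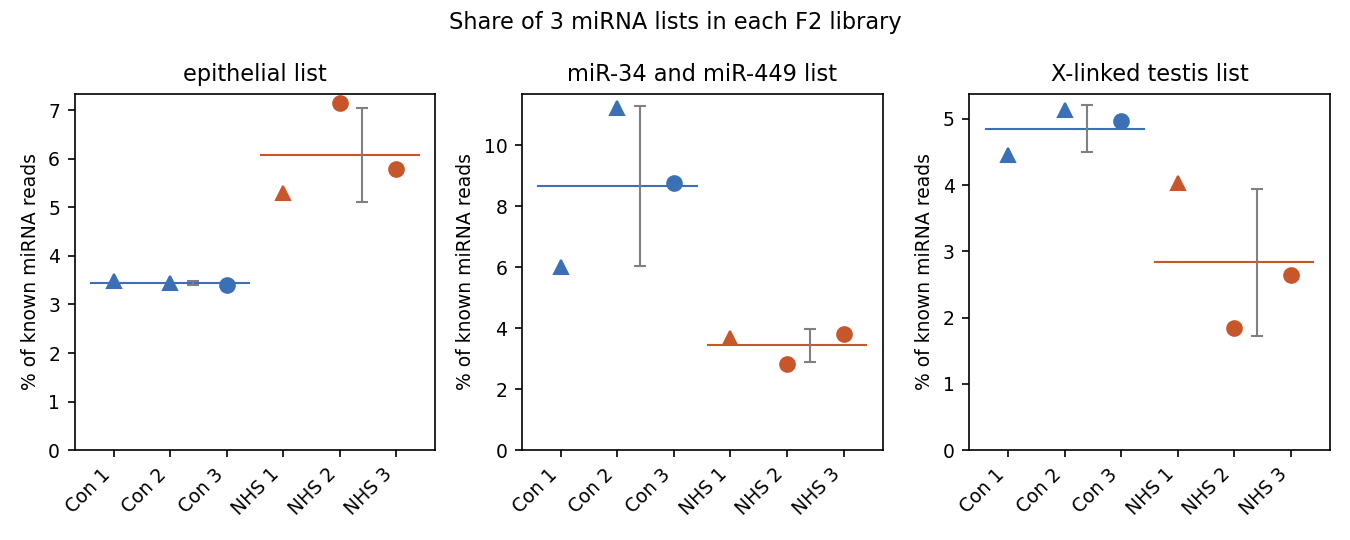
Share of known miRNA reads (vertical axes, in percent, from 0) taken by 3 miRNA lists in each F2 library, with triangles for libraries at 1000 TPM or more of novel_mir1, horizontal lines for group means and grey bars for 1 SD (n = 3). The epithelial share is higher in all NHS libraries than in all Con libraries, and the shares of the miR-34 and miR-449 list and the X-linked testis list are lower. These 3 lists were picked from 22 with earlier results of these data known. Of the remaining lists, the muscle list and the miR-26 family also separated by share, and all others overlapped.

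The miR-34 and miR-449 list went the other way. It took 6.002%, 11.2% and 8.77% of miRNA reads in Con and 3.69%, 2.83% and 3.81% in NHS, so the highest NHS library was below the lowest Con library. The means were 8.66% ± 2.61 in Con and 3.44% ± 0.533 in NHS (SD, n = 3 each; two-sided exact permutation p = 0.1). In other generations the list took 1.28% to 1.61% in F0 Con, 1.69% to 5.32% in F0 NHS and 6.88% to 10.8% in F1 Con. F0 controls were thus under every F2 NHS library, and F1 controls above them. Of 6 members 4 were tested, since miR-449b and miR-449c fell under the filter. Of the 4, 3 had a fold below 0, with a median of -0.81. The list median was -1.10 to -0.15 with each library left out. These miRNAs act in spermatogenesis, where mice that lack the whole family are sterile.

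miR-34b made up most of the difference in TPM. It stood at 10602, 17109.9 and 12993 TPM in Con and 6069, 5316 and 4417 TPM in NHS, and every NHS library was below every Con library (log2 fold -1.71, SE 0.52, edgeR adjusted p 0.112). DESeq2 called it, edgeR did not, and its adjusted p ran from 0.0350 to 0.434 over 16 settings. miR-34c, its neighbour, was at 7376, 4524 and 7925 TPM in Con and 2589, 3302 and 5632 TPM in NHS, with NHS 3 above Con 2, so that its groups overlapped (log2 fold -1.08, SE 0.42, edgeR adjusted p 0.234). miR-34a, which lies elsewhere in the genome and is induced by p53, was at 758.1, 566 and 4167 TPM in Con and 1680.0, 590.2 and 2070.0 TPM in NHS, and Con 3 was the highest of the 6. miR-449a was at 653, 536 and 935 TPM in Con and 1171, 181 and 2617 TPM in NHS, with the lowest and the highest value both in NHS.

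The X-linked testis cluster of the miR-506 superfamily, active in spermatocytes, took 4.46%, 5.14% and 4.97% of miRNA reads in Con and 4.03%, 1.84% and 2.65% in NHS. By this share all NHS libraries were below all Con libraries (two-sided exact permutation p = 0.1), NHS 1 by the smallest margin. In summed TPM the groups overlapped, at 14393, 10412 and 14750 in Con and 12569, 6098 and 10251 in NHS. Of its 21 members, 18 were tested and 3 (miR-509, miR-878a and miR-878b) had no reads in F2. Of the 18, 14 had a fold below 0, with a median of -0.49. None (0) passed the adjusted threshold or an unadjusted p under 0.05. Single members mostly overlapped: NHS lay wholly below Con in 1 member and wholly above in 1 (4.77% and 12.1% over all names). miR-470, the member below, was at 1384, 1295 and 1979 TPM in Con and 1169, 743.1 and 484.9 TPM in NHS (edgeR adjusted p 0.371). miR-743b, the member above, was at 63.0, 83.3 and 73.5 TPM in Con and 94.8, 192.8 and 148 TPM in NHS. The most abundant member, miR-465c, was at 5079, 4397 and 4689 TPM in Con and 4926, 2055 and 4437 TPM in NHS, and only NHS 2 lay far from the rest. miR-871 was at 2335, 1425 and 1676 TPM in Con and 1593, 1099 and 1641 TPM in NHS, with overlap. miR-465a to miR-465d are near-identical copies, and the counting may have split their reads.

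In bulk samples, fewer cells of a type and less RNA per cell cannot be told apart. A higher epithelial share and lower shares of the miR-34 and miR-449 list and the X-linked testis list are thus statements about the mix of RNA. The miR-34 and miR-449 list and the X-linked testis list were present in every F2 library, and so were lists of other cells. Of miRNA reads, red blood cell miRNAs took 2.17% to 3.97% in Con and 2.79% to 6.31% in NHS. Leukocyte miRNAs took 0.818% to 1.59% in Con and 0.924% to 1.18% in NHS. Stromal and smooth muscle miRNAs took 5.70% to 11.2% in Con and 8.01% to 12.5% in NHS, and endothelial miRNAs 0.579% to 0.761% in Con and 0.312% to 0.724% in NHS. All 4 lists overlapped between groups. Muscle miRNAs took 0.0765% to 0.0963% in Con and 0.135% to 0.354% in NHS, and there every NHS library was above every Con library. No member of these 5 lists was at 0 in all 6 libraries. The part of other cells in the differences of the epithelial, miR-34 and miR-449 and X-linked testis lists was not tested.

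**Figure D3:**
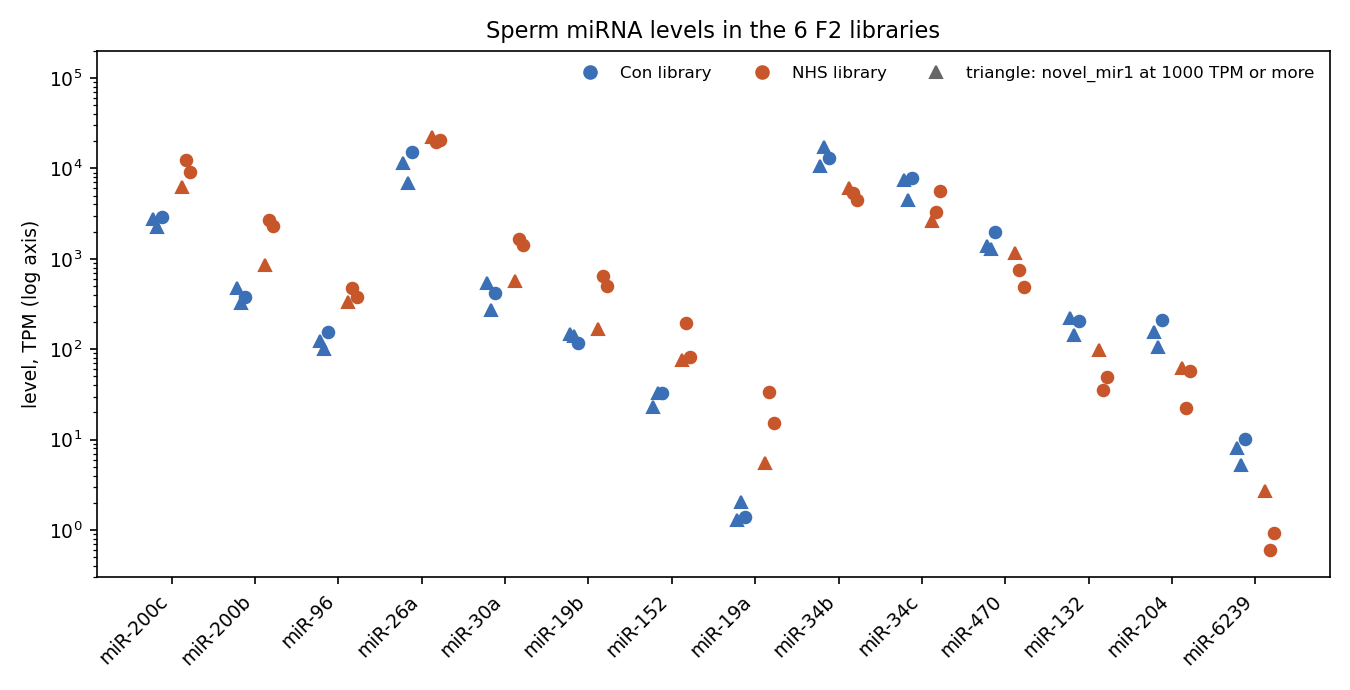
Level of 14 miRNAs in each F2 library, in TPM on a log axis, with Con in blue, NHS in orange and triangles for libraries at 1000 TPM or more of novel_mir1. In all of them except miR-34c the 3 NHS libraries lie wholly above or wholly below the 3 Con libraries. The names were picked with earlier results of these data known. Over all 461 names NHS lay wholly above Con in 12.1% and wholly below in 4.77%. NHS 1 (orange triangle) is in most of the 14 the NHS library nearest to Con.

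The name with the smallest p was miR-19a, of the miR-17-92 cluster that drives proliferation. It is rare in these libraries, at 1.30, 2.05 and 1.38 TPM in Con and 5.55, 33.4 and 15.1 TPM in NHS, but every NHS library was above every Con library (log2 fold 3.14, SE 0.69, edgeR adjusted p 0.0645). Its adjusted p ran from 0.000492 to 0.306 over 16 settings. miR-19b, with the same seed and more abundant, was at 149, 139.6 and 116 TPM in Con and 168, 653 and 500.4 TPM in NHS, also without overlap, NHS 1 being only just above Con 1 (log2 fold 1.35, SE 0.57, edgeR adjusted p 0.264).

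Of the 13 members of that cluster and its paralogs, 11 were tested, 9 with a fold above 0 and 2 below, with a median of 0.68. NHS lay wholly above Con in 6 (12.1% over all names). The share of the list overlapped between groups, at 0.788% to 1.32% in Con and 0.878% to 1.04% in NHS. Its 2 most abundant members did too: miR-93 was at 1861, 1869 and 1476 TPM in Con and 1486, 864 and 2252 TPM in NHS, and miR-25 at 588, 277 and 374 TPM in Con and 553, 546 and 317 TPM in NHS.

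miR-362 and miR-500 are neighbours on the X chromosome (chrX:7241984-7242005 and chrX:7237695-7237716, minus strand). miR-362 was at 1.97, 0.719 and 2.07 TPM in Con and 5.28, 14.5 and 11.1 TPM in NHS (log2 fold 2.44, SE 0.54, edgeR adjusted p 0.0645). miR-500 was at 20.2, 11.0 and 13.5 TPM in Con and 37.6, 349 and 56.5 TPM in NHS (log2 fold 3.03, SE 0.83, edgeR adjusted p 0.0952). In both, every NHS library was above every Con library and NHS 2 was the highest. Without NHS 2 the fold of miR-500 was 1.41. miR-532, of the same cluster, was at 786, 502 and 1489 TPM in Con and 705, 386 and 767 TPM in NHS, with overlapping groups. miR-466a, of the large cluster in an intron of Sfmbt2, was at 1.80, 2.43 and 0.459 TPM in Con and 6.78, 20.2 and 32.6 TPM in NHS, again without overlap (log2 fold 3.22, SE 0.81, edgeR adjusted p 0.0952). Its many near-identical copies may share reads.

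miR-135a was at 38.2, 29.5 and 71.7 TPM in Con and 53.3, 609 and 318 TPM in NHS. NHS 1 lay inside the Con range, and NHS 2 and NHS 3 far above it (log2 fold 2.53, SE 0.70, edgeR adjusted p 0.0952). Without NHS 2 the fold was 1.68. miR-122, the main miRNA of the liver, was at 1.63, 4.48 and 6.31 TPM in Con and 189.5, 12.0 and 13.6 TPM in NHS. Every NHS library was above every Con library, but 1 library set the size: the fold of 3.90 (edgeR adjusted p 0.0952) was 1.15 without NHS 1.

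Lower names were led by miR-6239, at 7.99, 5.20 and 10.1 TPM in Con and 2.74, 0.604 and 0.923 TPM in NHS, with every NHS library below every Con library (log2 fold -2.65, SE 0.59, edgeR adjusted p 0.0645). Its fold was -3.81 in the libraries low in novel_mir1, and its adjusted p there was 0.0353, within 0.00143 to 0.338 over 17 settings. miR-132, induced by neuronal activity and by hormones in gonads, was at 220.4, 142.5 and 206.4 TPM in Con and 98.99, 35.2 and 48.7 TPM in NHS, without overlap and with NHS 1 nearest to Con (log2 fold -1.87, SE 0.48, edgeR adjusted p 0.0952, 0.00823 to 0.434 over 16 settings). miR-369, of the imprinted Dlk1-Dio3 cluster, was at 259.9, 68.4 and 95.4 TPM in Con and 59.0, 14.9 and 43.9 TPM in NHS. NHS 1 was just below Con 2, the lowest control (log2 fold -2.06, SE 0.56, edgeR adjusted p 0.0952). Without Con 1, the highest, the fold was -1.34.

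miR-204, encoded in an intron of Trpm3 and typical of pigment epithelium, ranked below the 10 smallest p-values and is named with the following trio after its values were seen. It was at 154.5, 105 and 209 TPM in Con and 62.2, 22.5 and 56.9 TPM in NHS, all NHS below all Con (log2 fold -1.98, SE 0.60, edgeR adjusted p 0.112). The trio with 1 seed, miR-152, miR-148a and miR-148b, comes from 3 chromosomes. It was chosen because NHS lay wholly above Con in each member, as it did in 12.1% of all names, so this is a description. miR-152 was at 23.04, 32.6 and 32.7 TPM in Con and 75.1, 194.9 and 82.5 TPM in NHS (log2 fold 1.66, SE 0.47, edgeR adjusted p 0.0952). miR-148a was at 152, 130.1 and 135 TPM in Con and 344, 482 and 411.7 TPM in NHS. miR-148b was at 3.26, 4.32 and 4.17 TPM in Con and 8.06, 32.3 and 8.88 TPM in NHS. NHS 2 was the highest library in all 3, and the edgeR adjusted p was 0.279 for miR-148a and 0.165 for miR-148b.

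Among the seed families, the miR-30 family, broadly expressed and abundant in epithelium, had 5 of 6 members above 0 with a median fold of 0.87. miR-30a was at 544.3, 273 and 418 TPM in Con and 572, 1646 and 1434 TPM in NHS, with NHS 1 just above Con 1 (log2 fold 1.28, SE 0.43, edgeR adjusted p 0.164). miR-30b was at 662, 304 and 685 TPM in Con and 492, 1122 and 3439 TPM in NHS. miR-30d, the most abundant member, was at 4289, 1349 and 4198 TPM in Con and 2379, 6251 and 4881 TPM in NHS. Both overlapped, with NHS 1 inside the Con range. The miR-15, miR-16 and miR-195 family, which restrains the cell cycle, had 6 of 6 members above 0 with a median of 1.16, wholly above Con in 2 (12.1% over all names). Its largest member, miR-16, was at 3445, 2369.6 and 3709 TPM in Con and 2280.3, 9250.5 and 8808 TPM in NHS: NHS 1 was the lowest of all 6 libraries and NHS 2 and NHS 3 the highest. miR-195a was at 92.6, 41.9 and 71.2 TPM in Con and 49.3, 408 and 305 TPM in NHS, with NHS 2 and NHS 3 again the highest and NHS 1 inside the Con range (log2 fold 1.60, SE 0.64, edgeR adjusted p 0.239). miR-15b was at 992, 635 and 482 TPM in Con and 233, 1744 and 1102 TPM in NHS, with the lowest and the highest value both in NHS.

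The let-7 family, which marks differentiated cells and is the largest family in these libraries, did not separate the groups. It took 27.9%, 19.9% and 18.4% of miRNA reads in Con and 18.9%, 15.8% and 28.7% in NHS, with the lowest and the highest share both in NHS. Of its 9 members, 4 had a fold above 0 (median -0.07). let-7c, the most abundant name in F2, was at 26046, 14064 and 15630.0 TPM in Con and 27329, 16309 and 39583 TPM in NHS. let-7a was at 24349, 10785 and 11183 TPM in Con and 9299, 11196 and 19696 TPM in NHS. let-7f was at 9455, 3188 and 7019.7 TPM in Con and 3714, 9263 and 17142 TPM in NHS. All 3 overlapped between groups. The miR-26 family took 4.31%, 4.05% and 6.04% of miRNA reads in Con and 7.94%, 6.91% and 6.69% in NHS, every NHS library being above every Con library (two-sided exact permutation p = 0.1). miR-26a, which makes up most of it, was at 11504, 6853 and 15148 TPM in Con and 22389, 19492 and 20594 TPM in NHS. The NHS libraries were close to each other and the Con libraries spread widely (log2 fold 0.66, SE 0.34, edgeR adjusted p 0.366). miR-26b, at 2429, 1350.2 and 2779.8 TPM in Con and 2376, 3444 and 5296 TPM in NHS, overlapped.

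The miR-29 family, a brake on collagen genes, had 2 of 3 members above 0 (median 0.69). miR-29a was at 1449.6, 947 and 1733 TPM in Con and 789.7, 1826 and 2086 TPM in NHS. miR-29b was at 117, 60.4 and 118 TPM in Con and 114, 175 and 290.98 TPM in NHS. miR-29c, the rarest, was at 54.4, 54.0 and 70.3 TPM in Con and 79.4, 165 and 181 TPM in NHS, and there alone the groups did not overlap. The miR-99, miR-100 and miR-125 families had 2 of 5 above 0 (median -0.11). miR-99a was at 9720.3, 7268 and 8686 TPM in Con and 14007, 11942 and 8835 TPM in NHS. miR-125b was at 4901, 3578 and 4744 TPM in Con and 3489, 4186 and 5426 TPM in NHS, and both overlapped. miR-99b was at 574, 686 and 1919.7 TPM in Con and 769, 2381 and 303 TPM in NHS, with the lowest and the highest value both in NHS. For let-7 and for miR-99, miR-100 and miR-125 the sign of the median changed when folds were scaled to library reads (0.19 and 0.12).

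**Figure D4:**
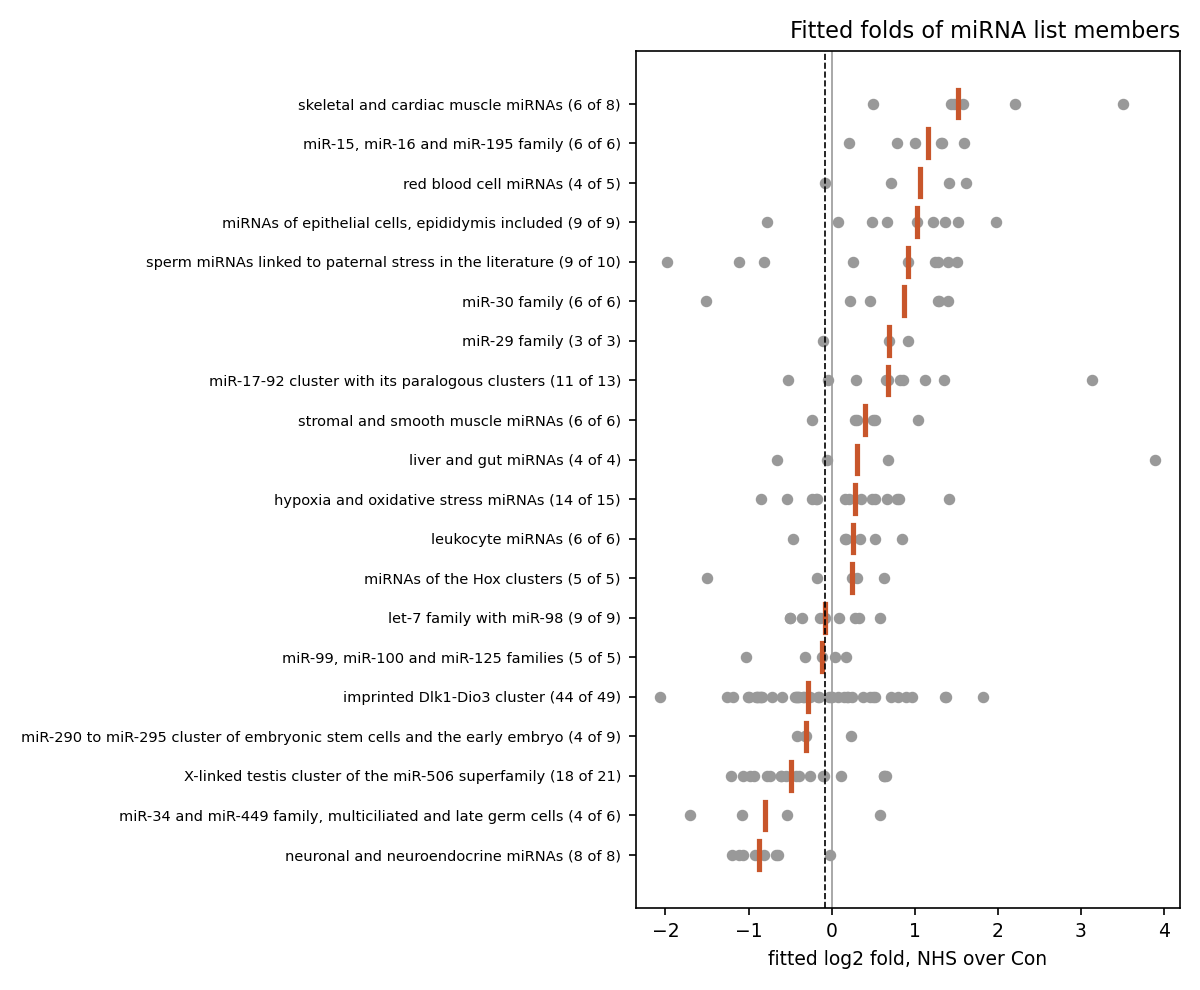
Fitted log2 fold of NHS over Con (horizontal axis) for each tested member (grey points) of the 20 miRNA lists with at least 3 tested members, with the list median as an orange bar and the median of all 461 names as a dashed line at -0.08. Labels give tested and all members. All tested members of the muscle list and of the miR-15, miR-16 and miR-195 family lie above 0, and all 8 of the neuronal list lie below it.

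Among markers of other tissues, the muscle list had 6 of 8 members tested and 6 of 6 above 0, with a median of 1.53, wholly above Con in 3 (12.1% over all names). miR-133a was at 113, 68.8 and 123.9 TPM in Con and 127.9, 689.9 and 204.4 TPM in NHS, with NHS 1 just above Con 3. miR-1a was at 9.20, 19.6 and 35.9 TPM in Con and 33.9, 274 and 60.9 TPM in NHS. miR-1b was at 161, 21.7 and 28.4 TPM in Con and 97.2, 137 and 457 TPM in NHS. Both overlapped. The red blood cell list had 3 of 4 above 0 (median 1.06). miR-451a, its main miRNA, was at 8129.9, 4287 and 11493 TPM in Con and 13993, 8818 and 24086 TPM in NHS. miR-486a was at 34.5, 28.1 and 122.2 TPM in Con and 318, 233 and 84.1 TPM in NHS. In both, at least 1 Con library lay inside the NHS range. miR-486b, a near-identical copy on the opposite strand whose reads may be split with it, was at 120.2, 81.0 and 139 TPM in Con and 45.1, 152 and 205.7 TPM in NHS.

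The leukocyte list had 5 of 6 above 0 (median 0.26), and its most abundant members, miR-150, miR-146a and miR-223, overlapped. miR-150 was at 1135, 906 and 2211 TPM in Con and 676, 1593 and 1465 TPM in NHS. miR-146a was at 1196.5, 766 and 1857 TPM in Con and 2159, 1461 and 1366 TPM in NHS. miR-223 was at 203, 102 and 372 TPM in Con and 229, 492 and 280.4 TPM in NHS. The stromal list had 5 of 6 above 0 (median 0.41), led by miR-143 of smooth muscle at 27736, 11921 and 11520.0 TPM in Con and 27280.1, 18053 and 31549.8 TPM in NHS. In miR-143 Con 1 was as high as NHS 1, and Con 2 and Con 3 were the lowest. miR-199a was at 5444, 3214 and 302 TPM in Con and 6988, 1604 and 403 TPM in NHS. miR-199b was at 616, 521 and 4313 TPM in Con and 2389.9, 3383 and 3002 TPM in NHS. The endothelial miR-126a was at 2429, 1191 and 1714 TPM in Con and 967, 1487 and 2707 TPM in NHS. These 3 overlapped between groups, as did miR-126b, at 29.1, 2.88 and 4.82 TPM in Con and 6.05, 137 and 94.2 TPM in NHS. The neuronal and neuroendocrine list had 8 of 8 below 0 (median -0.87), but 0.19 in the libraries low in novel_mir1.

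In that list miR-124, the main miRNA of neurons, was at 321, 808 and 23.3 TPM in Con and 432, 107 and 141.2 TPM in NHS, and it was high in Con 1, Con 2 and NHS 1, the same 3 libraries as novel_mir1. miR-375, of neuroendocrine cells and pancreatic islets, was at 942, 1595 and 1673 TPM in Con and 1715, 189.9 and 426 TPM in NHS, so NHS 2 and NHS 3 were lower than the other 4 libraries. miR-7a, at 889, 637 and 1424 TPM in Con and 1293, 427 and 1805 TPM in NHS, overlapped. In the liver and gut list (2 of 4 above 0), miR-192 was at 237, 149 and 204.7 TPM in Con and 179, 116 and 157 TPM in NHS. miR-194 was at 209.7, 43.4 and 263 TPM in Con and 60.1, 268 and 249.7 TPM in NHS, and both overlapped.

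The list of sperm miRNAs that earlier studies tied to stress of the father had 6 of 9 tested members above 0, with a median of 0.92. NHS lay wholly above Con in 4 (12.1% over all names) and wholly below in 1 (4.77%). The members without overlap were miR-29c, miR-30a, miR-32 and miR-193a above and miR-204 below. miR-32 was at 14.5, 17.4 and 19.1 TPM in Con and 26.4, 66.1 and 61.4 TPM in NHS. miR-193a was at 5.48, 3.93 and 4.75 TPM in Con and 10.1, 29.4 and 9.77 TPM in NHS. The list's share of miRNA reads overlapped, at 0.906% to 1.43% in Con and 1.003% to 1.23% in NHS. Its 3 most abundant members are miR-375 and miR-532, which overlapped, and miR-30a, which did not. The hypoxia and oxidative stress list had 9 of 14 above 0 (median 0.28), none without overlap. miR-21a, its main member, was at 4503, 4584 and 11003 TPM in Con and 12447, 22812 and 5611 TPM in NHS. miR-23a was at 6371, 1533 and 2657 TPM in Con and 4654, 3531 and 2405 TPM in NHS.

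The imprinted Dlk1-Dio3 cluster, expressed from the maternal chromosome, had 17 of 44 tested members above 0 and 27 below (median -0.28, and 0.01 with scaling to library reads). In 2 of its abundant members NHS 1 was as high as Con while NHS 2 and NHS 3 were low. miR-411 was at 1461, 1114 and 1287 TPM in Con and 1558, 511 and 434.004 TPM in NHS. miR-127 was at 1349.7, 1123 and 2041 TPM in Con and 2469.8, 495.4 and 922 TPM in NHS. miR-379, also abundant, was at 864, 376.2 and 664 TPM in Con and 694, 576 and 364 TPM in NHS, with overlap. The Hox cluster list had 3 of 5 above 0 (median 0.25). miR-10a was at 5118, 5218 and 10855 TPM in Con and 6567, 6349 and 9876 TPM in NHS. miR-10b was at 2549.9, 1818 and 3627 TPM in Con and 2120.1, 5199 and 4749.9 TPM in NHS. miR-196b was at 1935, 856 and 1352 TPM in Con and 2243, 3522 and 1839 TPM in NHS. These 3 overlapped between groups.

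The miR-290 to miR-295 cluster, which marks embryonic stem cells and the early embryo, was near the detection filter, with 4 of 9 members tested and 1 above 0. miR-293 was at 3.39, 4.43 and 3.75 TPM in Con and 2.04, 4.06 and 5.88 TPM in NHS. miR-292a was at 5.23, 2.21 and 2.83 TPM in Con and 2.74, 2.41 and 4.998 TPM in NHS. miR-294 was at 5.27, 0.885 and 1.49 TPM in Con and 4.36, 0.684 and 5.46 TPM in NHS. All 3 overlapped. Of the 10 most abundant names in F2, miR-34b lay wholly below Con and miR-26a wholly above (4.77% and 12.1% over all names). The other 8 were let-7c, miR-143, let-7a, let-7f, miR-451a, miR-21a, miR-99a and miR-191. The last was at 23815, 13307 and 18156 TPM in Con and 17080.4, 24315 and 17313 TPM in NHS. The 20 most abundant names together took 60.1% to 68.2% of miRNA reads.

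Whether the exposed line differed from its controls in F2 as the treated males had in F0 was tested as the F2 effect minus the F0 effect, from groups that share no library. edgeR called 0 of 461 names (0%); 82 (17.8%) had an unadjusted p under 0.05, and the lowest adjusted value was 0.0733. DESeq2 called 41 (8.89%), and edgeR without NHS 1 called 30. For miR-34b the difference was -3.06 (SE 0.73, edgeR adjusted p 0.0733). The levels behind it were 1881 to 3931 TPM in F0 Con, 3315 to 12297 TPM in F0 NHS and 6988 to 9274 TPM in F1 Con, so in F0 the treated group reached higher, with overlap, while in F2 it was wholly lower. For miR-200c the difference was 1.88 (SE 0.49, edgeR adjusted p 0.0733). For miR-200b it was 2.57 (SE 0.73, edgeR adjusted p 0.0733), and for miR-26b it was 1.87 (SE 0.52, edgeR adjusted p 0.0733). In miR-26b F0 NHS was wholly below F0 Con, at 1568 to 2564 TPM against 3644 to 6333 TPM. Its F2 fold was 0.48, with overlapping groups. Further names had the same edgeR adjusted p of 0.0733, among them miR-19a (difference 3.42) and miR-34c (-2.32).

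Predicted miRNAs are hairpin reads that match no known name, and 6173 were listed in F2. Of those that passed the filter edgeR called 1 (0.334%), novel_mir5279. It had no reads in any Con library and 17, 83 and 45 reads in NHS, or 0.655, 3.34 and 1.73 TPM, at least 14.1-fold higher against a floor of 3 reads per library (edgeR adjusted p 0.00219). It is thus rare, but present in all NHS libraries. With the filter set on the F2 libraries alone, or at 10 CPM, it was too rare to be tested. With the replicate number as a block its adjusted p was 0.0834. Over alternatives it ran from 2.83e-05 to 0.0834 over 13 settings.

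Of the next 4 by p, novel_mir242 lies in an intron of Hic1. novel_mir5870 overlaps the snoRNA Gm25394, on the same strand, inside an intron of Iars. Both had reads in NHS 2 and NHS 3 only. The former was at 1.69 and 0.961 TPM there, the latter at 0.805 and 1.35 TPM. novel_mir6238, in an intron of Rap1gap2, was the reverse, at 0.251, 3.26 and 1.11 TPM in Con and 0 in NHS, at least 13.2-fold lower (edgeR adjusted p 0.185). novel_mir517, a GAG repeat in a coding exon of Gigyf1 that Epo overlaps on the opposite strand, was at 22.2, 17.2 and 50.6 TPM in Con and 27.2, 331 and 129.1 TPM in NHS. The abundant entries followed the split of the libraries: besides novel_mir1, novel_mir4 was at 1216, 762 and 95.4 TPM in Con and 1008, 144.2 and 69.1 TPM in NHS. novel_mir6543, in a 5S ribosomal RNA copy inside an intron of Stac, was at 1630.2, 1924 and 240.1 TPM in Con and 492, 199.9 and 64.0 TPM in NHS. Over all tested, NHS lay wholly above Con in 18 (6.02%) and wholly below in 20 (6.69%), and 158 (52.8%) had a fold above 0. At an unadjusted p under 0.05 there were 41 (13.7%), and DESeq2 called 4 (1.34%).

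Predicted siRNAs are paired short RNAs that in mouse are best known from oocytes. Of 3932 listed in F2, 65 passed the filter and edgeR called 1 (1.54%), novel_sir5584, with 0 reads in Con and 0.540, 2.01 and 0.692 TPM in NHS (14, 50 and 18 reads). That is at least 7.98-fold higher against the floor (edgeR adjusted p 0.0173, 5.06e-06 to 0.883 over 13 settings). Within F2 only NHS 2 reached the 1 CPM of the filter. With the filter set on the F2 libraries alone, novel_sir5584 was too rare to be tested. It lost the call without any 1 of the Con libraries, at an edgeR adjusted p of 0.0623, 0.0751 and 0.105, and with the block, at 0.248. novel_sir15806, the most abundant, was the reverse: it stood at 212, 362 and 24.4 TPM in Con and 10.3, 20.9 and 1.11 TPM in NHS, every NHS library below every Con library (log2 fold -3.27, SE 1.12, edgeR adjusted p 0.213). Its fold shrank to -0.79 in the libraries low in novel_mir1. novel_sir4982 was seen in NHS 2 and NHS 3 only, at 1.01 and 0.731 TPM, and novel_sir7472 at 0, 0 and 0.0383 TPM in Con and 0, 0.483 and 1.15 TPM in NHS. Among those named for small p, novel_sir9590 was at 5.27, 6.20 and 11.9 TPM in Con and 8.60, 28.3 and 36.9 TPM in NHS, with overlap. Next by abundance, novel_sir13521 was at 48.9, 114 and 18.2 TPM in Con and 31.6, 72.3 and 13.1 TPM in NHS. novel_sir6376 was at 48.4, 44.2 and 20.9 TPM in Con and 9.17, 14.5 and 0.731 TPM in NHS, without overlap. Over the 65, NHS lay wholly above Con in 2 (3.08%) and wholly below in 4 (6.15%), and 29 (44.6%) had a fold above 0. At an unadjusted p under 0.05 there were 4 (6.15%), and DESeq2 called 4 (6.15%).

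Predicted piRNAs are repeat-derived reads, and of 276092 listed in F2, 1114 passed the filter. edgeR called 0 (0%). At an unadjusted p under 0.05 there were 85 (7.63%), 59 higher in NHS (5.30%) and 26 lower (2.33%). DESeq2 called 35 (3.14%), 30 higher (2.69%) and 5 lower (0.449%). The smallest adjusted p, 0.0594, was that of novel_pir295434, a 21-base sequence of an ERV1 repeat class that ends in CCA. It had 0 reads in Con and 1.503, 5.31 and 4.46 TPM in NHS (39, 132 and 116 reads), at least 27.8-fold higher, and its adjusted p ran from 3.14e-07 to 0.999 over 15 settings. Within F2 only the 3 NHS libraries of novel_pir295434 reached the 1 CPM of the filter, so its absence from Con and its fold are a description. novel_pir492911, of a LINE-1 repeat, was seen in NHS 2 and NHS 3 only, at 3.70 and 12.3 TPM. So was novel_pir372886, of an ERVK repeat, at 1.57 and 2.08 TPM. novel_pir549431, also of ERVK, was at 0.0836, 0 and 0 TPM in Con and 0.694, 2.29 and 1.96 TPM in NHS, with 2 reads in Con 1 and none in Con 2 or Con 3. novel_pir558484, of a MaLR repeat, was at 0.0418, 0.111 and 0.0383 TPM in Con and 0.617, 14.6 and 0.192 TPM in NHS, almost all of it in NHS 2. Over the 1114, NHS lay wholly above Con in 22 (1.97%) and wholly below in 71 (6.37%), and 614 (55.1%) had a fold above 0.

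The clearest difference in this class was the length of the list, not the reads. Con libraries listed 39878, 28647 and 32956 predicted piRNAs and NHS libraries 44733, 85839 and 88896, with no overlap (two-sided exact permutation p = 0.1). Their share of library reads was 1.27%, 2.76% and 1.36% in Con and 1.55%, 1.41% and 1.05% in NHS. NHS 2 and NHS 3 listed about as many entries as each other and far more than the other F2 libraries. F0 Con libraries listed 55791 to 64190 entries and F1 Con libraries 41608 to 55753, each more than any F2 Con library. NHS 1 lay inside the F1 Con range, and NHS 2 and NHS 3 above all F0 Con and F1 Con libraries. Of the entries listed, 45.8%, 31.2% and 18.03% in Con and 38.2%, 61.3% and 67.6% in NHS had a single read. That is 18263, 8938 and 5943 entries in Con and 17085, 52653 and 60115 in NHS, so much of the extra length in NHS 2 and NHS 3 was single reads. NHS 2 and NHS 3 are also the libraries whose deposited lists break off later on, each at 96730 entries, the most that any deposited list holds. The break is thus not independent of list length. The part of library preparation in list length was not tested.

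The length, first base and CCA shares of the reads separated the libraries high in novel_mir1 from the low ones, and overlapped between Con and NHS. Of predicted piRNA reads, sequences of at least 26 bases, the usual length of piRNAs, held 4.46%, 2.21% and 22.2% in Con and 8.15%, 26.7% and 24.9% in NHS. Those starting with T held 12.8%, 10.4% and 29.9% in Con and 13.9%, 25.1% and 32.6% in NHS. Both were low in Con 1, Con 2 and NHS 1. Sequences ending in CCA, 1.06% of all predicted entries, held 24.98%, 42.9% and 8.01% in Con and 36.2%, 10.47% and 3.36% in NHS, high in the same 3 libraries. The most abundant entry, novel_pir83653, ends in CCA and was at 2219.6, 7042 and 91.8 TPM in Con and 3819.7, 52.2 and 21.2 TPM in NHS. novel_pir249668, which also ends in CCA, was at 554, 2816 and 476 TPM in Con and 1313, 192.002 and 66.1 TPM in NHS. novel_pir83664, which is novel_pir83653 without its last base, was at 268, 1005 and 10.6 TPM in Con and 761, 13.4 and 3.04 TPM in NHS. By repeat class, sequences listed as ERV1 held 38.2%, 56.7% and 15.6% in Con and 50.2%, 24.8% and 10.7% in NHS. Much of this was in ERV1 entries that end in CCA. These held 24.4%, 42.1% and 7.44% of predicted piRNA reads in Con and 35.7%, 9.58% and 2.65% in NHS. Sequences listed as LINE-1 held 21.7%, 13.3% and 33.5% in Con and 16.8%, 20.8% and 26.5% in NHS. Counted by entries listed, without regard to reads, LINE-1 made up 29.8%, 30.7% and 30.6% in Con and 30.8%, 32.5% and 31.9% in NHS, and ERV1 8.73%, 8.80% and 8.66% in Con and 8.55%, 7.64% and 8.27% in NHS. NHS lay wholly above Con in the former and wholly below in the latter, by small margins (two-sided exact permutation p = 0.1 each). They are 2 of the 3 that did not overlap among 10 entry shares compared, the other being ERV1 entries that end in CCA, 0.248%, 0.374% and 0.206% in Con and 0.203%, 0.158% and 0.143% in NHS. Among tested entries, the fold was above 0 in 59 and below in 85 of ERV1 (median -0.50), and above in 161 of 315 of LINE-1 (median 0.06). For ERVK the median was 0.59 over 285 entries. The median over all 1114 was 0.24, but -0.31 with scaling to library reads and 0.56 with RLE factors, so these signs are relative to the scaling.

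**Figure D5:**
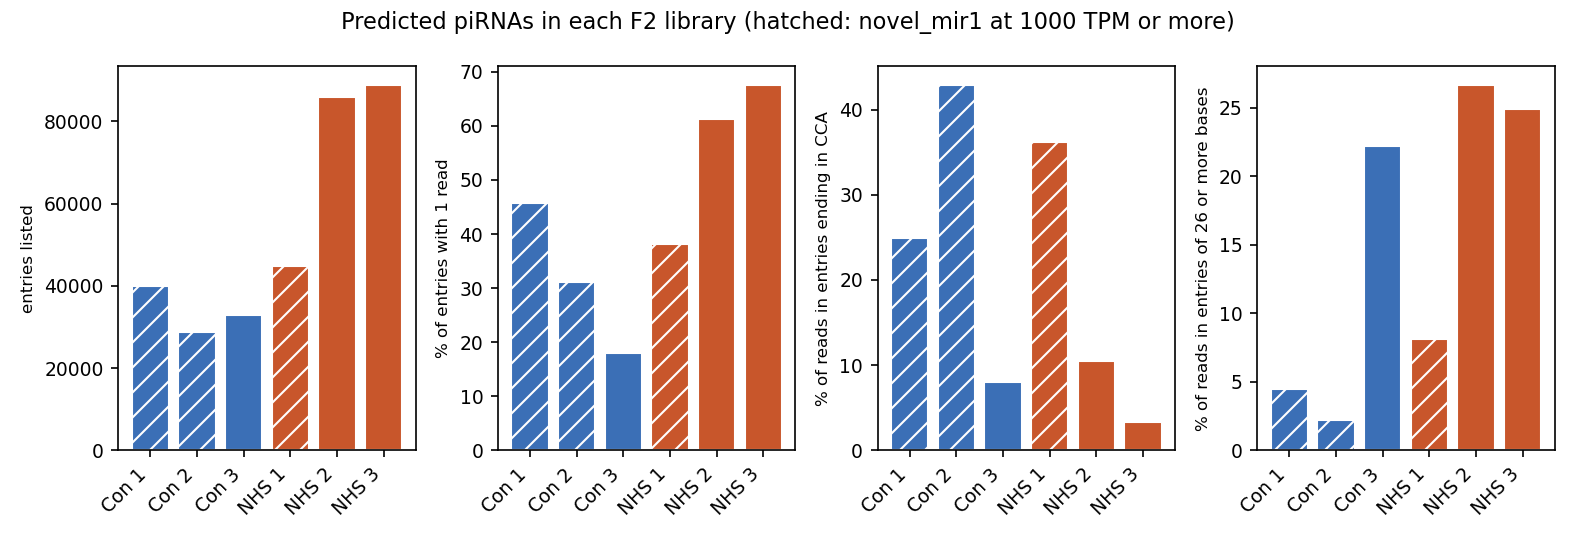
Predicted piRNAs in each F2 library: entries listed, share of entries with 1 read, share of reads in entries ending in CCA and share of reads in entries of 26 or more bases (vertical axes from 0), with libraries at 1000 TPM or more of novel_mir1 hatched. NHS 2 and NHS 3 list 85839 and 88896 entries, and the 3 hatched libraries have the highest CCA shares and the lowest shares of long entries.

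Of all library reads, known miRNAs took 32.3%, 20.3% and 29.7% in Con and 31.2%, 33.2% and 38.7% in NHS (two-sided exact permutation p = 0.2), with Con 2 the lowest and NHS 3 the highest. Predicted miRNAs took 2.39%, 1.24% and 0.378% in Con and 0.740%, 0.503% and 0.218% in NHS, led by Con 1, where novel_mir1 is highest. Predicted siRNAs took 0.0602%, 0.0871% and 0.0354% in Con and 0.0295%, 0.0360% and 0.0249% in NHS. All 4 classes overlapped between the groups.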

How the data were processed

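Sperm small RNA of 3 F2 Con and 3 F2 NHS libraries was compared. The authors deposited whole read counts and TPM values for each entry, per the file headers. The deposited TPM equals count divided by library total times 1000000, with no length term, which was checked. The submitters' processing notes name build mm10. Which aligner, filters and prediction tools were used is not given in the sources used here. Predicted positions were counted from 0 and are printed from 1; 1 of them is not reported here. Counts of each class were tested with edgeR 4.0.16 quasi-likelihood in R 4.3.3 (TMM within the class, two-sided, Benjamini-Hochberg over the class, adjusted p under 0.05), after a filter of 1 CPM in 3 libraries. Each fit used all libraries whose list holds the class whole, 16 of 18 for known miRNAs, siRNAs and piRNAs and 18 for predicted miRNAs. The test was first tried on simulated data with known changes. DESeq2 1.42.0 was an alternative.

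Text names the 10 smallest p, the 10 most abundant and 3 per list, and for predicted entries those called, the 5 smallest p and the 3 most abundant; exceptions are stated or are members of a list described. The members and lists were chosen with earlier results of these data known. The floor for an entry with no reads is 3 reads per library, or 0.115 to 0.166 TPM, and covers counting error only.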

Additional observations from a re-analysis of the deposited data

How the results depend on the processing

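Settings that use novel_mir1, and the filter on F2 libraries alone, were chosen after seeing the data. For known miRNAs the 0 calls became 30 with DESeq2, 4 with no filter, 1 without the libraries high in novel_mir1, and 0 to 17 with each library left out. For predicted miRNAs the 1 call became 4 with DESeq2, 5 with no filter, 21 without the high libraries and 1 to 3 with each library left out. It became 0 at 10 CPM, with the filter on F2 libraries, with F2 libraries alone and with the replicate block. For siRNAs the 1 call became 4 with DESeq2, 3 without the high libraries, 0 to 1 with each library left out, and 0 with no filter, at 10 CPM, with the filter on F2 libraries, with F2 libraries alone and with the replicate block. For piRNAs the 0 calls became 35 with DESeq2, 1 with RLE factors, 1 with the filter on F2 libraries, 7 with no filter, 3 with a term for the high libraries, 12 without them and 0 to 2 with each library left out. For the F2 effect minus the F0 effect the 0 calls became 41 with DESeq2, 9 with no filter, 1 with that term and 0 to 30 with each library left out. With the reads of the 4 classes as denominator, the NHS minus Con difference was -2.91 points for predicted miRNAs, -0.128 for siRNAs and -2.64 for piRNAs, against -0.847, -0.0307 and -0.459. The cause was not tested, except that stricter filters leave out the rare called entries. Of 556 values for the folds of 37 entries, 491 kept their direction and side of the threshold, 55 passed it, 6 lost it and 4 changed direction. All 4 were of miR-429, at -0.014 with the filter on F2 libraries and below 0 without Con 2, Con 3 or NHS 1, within -0.46 to 0.43 with each library left out.

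Replicate numbers are only shared: deviations of same-numbered libraries correlated at 0.110, -0.013 and 0.268, and Con 2 correlated best with NHS 1, at 0.341. The replicate block gave 0 calls in each class. Predicted names carry no arms, so separate arms were not run for them. Where 1 Con library was left, it was assumed to vary like the others. The 3 libraries a group limit exact tests to p = 0.1, and 1 TPM rests on 18.1 to 26.1 reads.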

Other observations

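Within a summed name, the listed reads moved between arms from library to library. Of the 50 most abundant known names, 49 list both arms, and in 28 of these the share listed as 5p ranged by over 50 percentage points among the 6 F2 libraries, while in 16 it ranged by under 5. For let-7c, whose 5p arm is the mature strand, the 5p share was 70.4%, 1.62% and 7.3% in Con and 0.959%, 69.4% and 65.7% in NHS. The listed let-7c-5p was at 18338, 228 and 1142 TPM in Con and 262, 11317 and 25999 TPM in NHS. For miR-26a the 5p share was 4.62%, 11% and 4.97% in Con and 89.5%, 12.1% and 90.1% in NHS, and for miR-191 87.6%, 10.3% and 84.8% in Con and 36.1%, 34.5% and 22.6% in NHS. For let-7c high and low shares occurred in both groups, and for miR-191 the groups overlapped. For miR-26a every NHS library was above every Con library, NHS 2 only just. For miR-93 the 5p share was 78.8%, 79.2% and 96.7% in Con and 30.5%, 39.4% and 30.9% in NHS, without overlap. Whether the arm split follows the groups was not tested. miR-143 stayed at its 3p arm in every library, and miR-34b likewise. The summed names used above do not depend on this split, but a level given for 1 arm would.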
